A study of Homo sapiens with 12 samples.

Results

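HMX1 and 8 transcription factors and cofactors of the embryonic kidney (PAX2, PAX8, SIX4, EYA1, EYA3, LHX1, SALL1 and WT1) were followed in HEK293T cells, 9 of the 26485 genes listed in both deposited tables. They were taken by gene symbol. HMX1 was included because the authors' test had called it under the 6T single guide RNA (sgRNA). Its values in those libraries are therefore given as a description, and no further test on them counts as support. The other factors were chosen for their known roles in the kidney with their levels in these tables already seen.

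The factors belong to a regulatory network that builds the nephron. PAX2 and PAX8 are paired-box proteins of the first kidney precursors, SIX4 and its relatives bind DNA and recruit EYA cofactors, which also carry a phosphatase domain, and SALL1 and WT1 are zinc-finger proteins of the metanephric mesenchyme, with WT1 kept on in podocytes. LHX1 is a LIM homeodomain protein of the nephric duct and the early nephron. HMX1 is a homeodomain protein known from the developing eye, outer ear and sensory and sympathetic ganglia of the mouse rather than from the kidney.

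Promoter windows from RefSeq (GRCh38.p14), from 250 bases before to 50 bases after a transcription start, were available for 6 of the 9 genes. The windows of HMX1, PAX2 and PAX8 are shown because HMX1 turned out to be extreme in base composition and because the paralogs PAX2 and PAX8 lay far apart in level. CG dinucleotides are in capitals.
HMX1: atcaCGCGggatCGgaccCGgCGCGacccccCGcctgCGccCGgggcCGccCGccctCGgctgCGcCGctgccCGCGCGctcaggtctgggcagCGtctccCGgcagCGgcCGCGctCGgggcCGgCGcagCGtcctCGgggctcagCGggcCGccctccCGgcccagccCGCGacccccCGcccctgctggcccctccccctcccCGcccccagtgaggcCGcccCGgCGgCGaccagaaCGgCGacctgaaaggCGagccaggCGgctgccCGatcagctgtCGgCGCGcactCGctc
PAX2: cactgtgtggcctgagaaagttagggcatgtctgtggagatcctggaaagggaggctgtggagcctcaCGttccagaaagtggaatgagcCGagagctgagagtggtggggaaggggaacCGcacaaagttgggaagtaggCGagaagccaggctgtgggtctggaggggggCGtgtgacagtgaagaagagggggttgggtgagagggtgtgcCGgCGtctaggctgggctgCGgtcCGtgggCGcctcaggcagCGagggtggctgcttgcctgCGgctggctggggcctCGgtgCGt
PAX8: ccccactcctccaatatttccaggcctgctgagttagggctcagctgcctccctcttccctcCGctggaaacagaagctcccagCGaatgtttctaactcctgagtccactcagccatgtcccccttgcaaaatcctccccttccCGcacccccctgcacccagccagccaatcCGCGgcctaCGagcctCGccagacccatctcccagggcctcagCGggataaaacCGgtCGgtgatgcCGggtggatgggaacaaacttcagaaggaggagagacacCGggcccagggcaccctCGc
The HMX1 window (chr4:8871790-8872089, minus strand) held 47 CG dinucleotides and was 81.7% G or C. Of 35116 RefSeq windows of this length, 2.41% held as many CG dinucleotides or more, and the median window held 14 and was 58.7% G or C. The PAX2 window (chr10:100735146-100735445, plus strand, the first of 2 starts) held 14 CG dinucleotides and the PAX8 window (chr2:113278872-113279171, minus strand) held 13. The second PAX2 start (chr10:100745332-100745631, plus strand) held 19 CG dinucleotides and was 66.7% G or C. Either PAX2 window held more CG dinucleotides than the PAX8 window, by a margin that depends on the start taken. The letters CAAGTG, the core of the sequence that HMX1 binds, were searched on both strands and stood in 11.5% of all windows and in 0 windows of the 6 genes.

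HEK293T is a cell line from human embryonic kidney into which a viral large T antigen was placed. PolyA RNA was sequenced after polyethylenimine transfection of PX330-GFP type plasmids, in 3 libraries for each of 4 groups, the 6T sgRNA with Cas9 and without Cas9 and the Luciferase sgRNA with Cas9 and without Cas9. The labels do not state what the 6T sgRNA targets, and every group carries an sgRNA, so there is no group of untransfected cells. Each deposited table sets a condition B against a condition A for one sgRNA, but names the conditions by letter only. Which letter stood for Cas9 is not given for either table, nor whether a letter means the same treatment in both. Every difference between conditions is therefore given as B over A, and no direction for Cas9 can be read from it. A difference between sgRNAs within a letter may be one of the sgRNA alone or of the sgRNA and Cas9 together, which cannot be told apart. Whether the 3 libraries of a group were separate cultures is not stated, so p-values measure only the spread between them, which may be technical.

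Reads of single libraries were recovered from the deposited means. The names 1 to 3 follow the size factor that normalizes each library and pair nothing. Reads in genes ranged from 6646804 to 8297529 in condition B and from 6349802 to 8238349 in condition A under the 6T sgRNA. The Luciferase libraries held 19401300 to 38073612 in condition B and 5899971 to 8232724 in condition A, so condition and depth went together there. The log2 difference of a gene also moved with the GC content of its transcripts across genes, with a Spearman rho of 0.36 for B over A in the 6T table and −0.69 in the Luciferase table. Genes are not independent replicates, and these values describe the tables.

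HMX1 stood lower in 1 of the 4 groups, condition A under the 6T sgRNA. Under the 6T sgRNA it had 669, 550 and 597 normalized reads in condition B, against 360, 351 and 359 in condition A. In the Luciferase libraries it had 692, 535 and 503 normalized reads in condition B, against 506, 609 and 595 in condition A. The 3 libraries of condition A under the 6T sgRNA lay below the other 9, and those 9 overlapped one another. As whole reads the 6T groups held 1335 in condition B and 808 in condition A, and the Luciferase groups 4695 in condition B and 1191 in condition A.

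**Figure D1:**
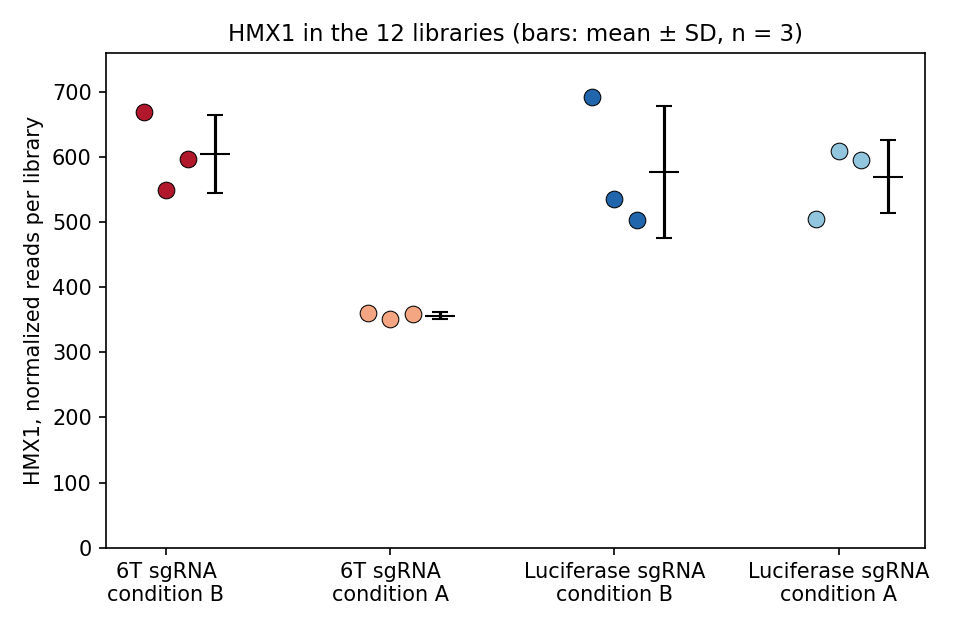
Normalized reads of HMX1 (vertical axis) in each of the 12 libraries, by sgRNA and condition, with the mean and SD of the 3 libraries of a group. The libraries of condition A under the 6T sgRNA lie between 351 and 360, and all others between 503 and 692.

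In means this was 605 ± 59.8 normalized reads in condition B and 357 ± 5.06 in condition A under the 6T sgRNA (SD, n = 3 each). In the authors' deposited table HMX1 was 1.70-fold higher in B, a log2 fold change of 0.76 with an adjusted p of 0.0132 in their DESeq test, the value it was selected on. That table called 8 of 19246 tested genes, or 0.0416%. In limma, fitted to the recovered reads, the log2 difference was also 0.76. The call rests on the authors' test, since limma called 0 of 13986 genes in this comparison, HMX1 included, with 336 at an unadjusted p under 0.05.

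Under the Luciferase sgRNA, which the selection did not use, no difference in HMX1 between conditions was detected. It averaged 577 ± 101 normalized reads in condition B and 570 ± 56.3 in condition A (SD, n = 3 each). In the authors' deposited table the log2 fold change was 0.02 with an unadjusted p of 0.922 and an adjusted p of 1. limma gave a log2 difference of 0.01 with a 95% interval from −0.31 to 0.32 (adjusted p = 0.982). The sign of so small a value changed with the voom weights. The difference between the 2 sgRNAs in B over A, Luciferase minus 6T, was −0.75 on the log2 scale. It contains the libraries HMX1 was selected on and is given without a test, and it is a difference in the Cas9 contrast only if the letters have the same meaning in both tables.

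Set side by side within a condition, the Luciferase minus 6T difference of HMX1 on the log2 scale was 0.67 in condition A and −0.08 in condition B. Both values use the libraries HMX1 was selected on, and a letter may not mean the same treatment under both sgRNAs. The low group was the 6T one of condition A whatever the letters stand for, and the other 3 group means lay between 570 and 605. Over all 12 libraries HMX1 had a coefficient of variation of 22.4%, against a median of 11.5% for the 5282 genes with means from 250 to 1000 normalized reads. That value holds the libraries HMX1 was selected on. Over the 6 Luciferase libraries alone its coefficient of variation was 12.8%, against a median of 10.3% for 5191 genes of that class of means, 66.2% of which varied less than HMX1.

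The transcripts of HMX1 are 73.4% G or C, a higher content than in 99.9% of the measured genes that have a value, whose median is 48.7%. Only 47 measured genes reached 70%, and their median log2 fold change in the authors' deposited tables was 0.15 for the 6T sgRNA and −0.14 for the Luciferase sgRNA. Of these genes 87.2% had a higher mean in B in the 6T table and 19.1% in the Luciferase table. HMX1 lay well above that median under the 6T sgRNA. After a smooth curve on GC content had been taken from the log2 fold changes of the authors' deposited tables, HMX1 stood at 0.58 in the 6T table and 0.16 in the Luciferase table. With the curve taken from each library before limma, its log2 difference was 0.55 for the 6T sgRNA, 0.15 for the Luciferase sgRNA and 0.36 between sgRNAs within condition A. The last of these was 0.67 before the curve was taken off, and the Luciferase minus 6T difference in B over A became −0.40. HMX1 stands at the far end of the GC range, where few genes fix the curve.

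**Figure D2:**
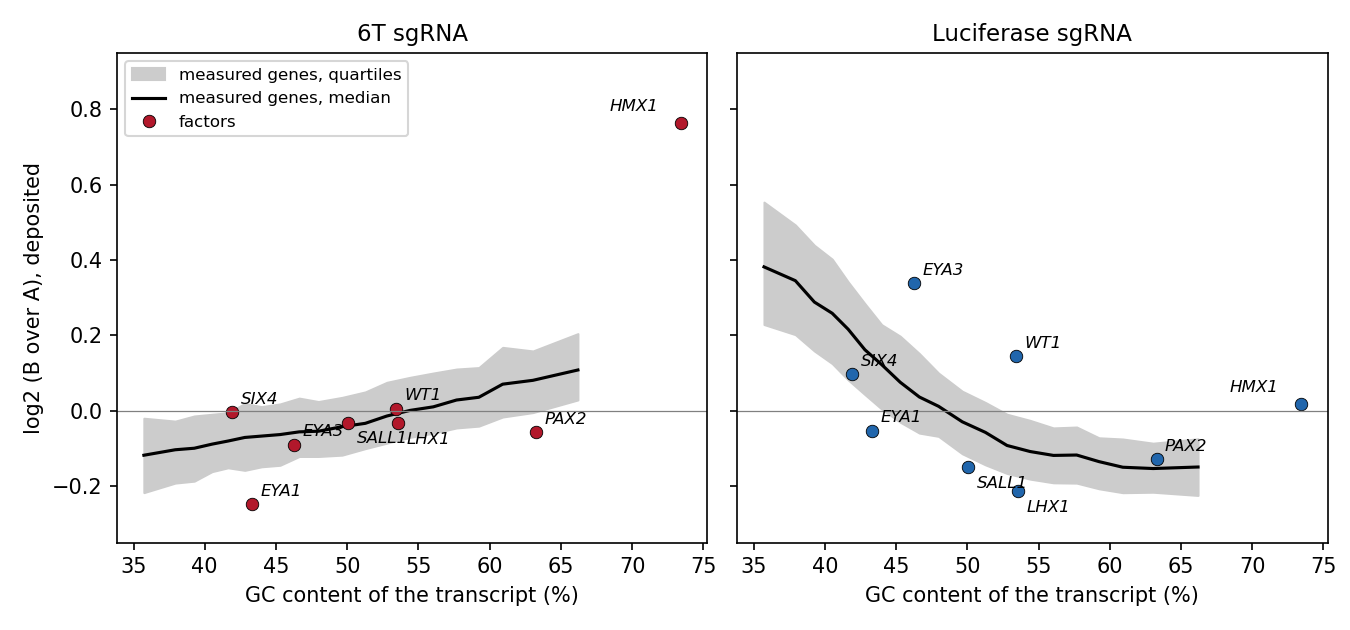
Deposited log2 fold change of condition B over A (vertical axis) against the GC content of the transcript in percent (horizontal axis) for the 8 measured factors, with the median and quartiles of all measured genes in 20 classes of equal size. The median climbs with GC content under the 6T sgRNA and falls with it under the Luciferase sgRNA, and HMX1 at 73.4% lies above the band in the 6T panel.

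The 5 genes whose log2 normalized reads followed HMX1 most closely over the 12 libraries, of 11593 genes with means of 50 or more, were PPP1R14B (Pearson r = 0.960), PET100 (0.939), C8orf82 (0.937), SRSF9 (0.930) and TXNDC5 (0.922). All libraries share the same groups and base composition trends, so these values are a description. The ranking also used the libraries HMX1 was selected on, so a low group shared with HMX1 is favoured by the choice of these genes. PPP1R14B, an inhibitor of protein phosphatase 1, averaged 1369 normalized reads in condition B and 815 in condition A under the 6T sgRNA, and 1187 in condition B and 1256 in condition A under the Luciferase sgRNA. Its log2 fold change in the authors' deposited table was 0.75 under the 6T sgRNA (adjusted p = 0.00666). PPP1R14B and C8orf82 are GC-rich at 68.0% each, whereas SRSF9, a splicing factor, is at 42.1%. For the other measured kidney factors r with HMX1 ranged from −0.71 for EYA1 to 0.19 for LHX1.

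**Figure D3:**
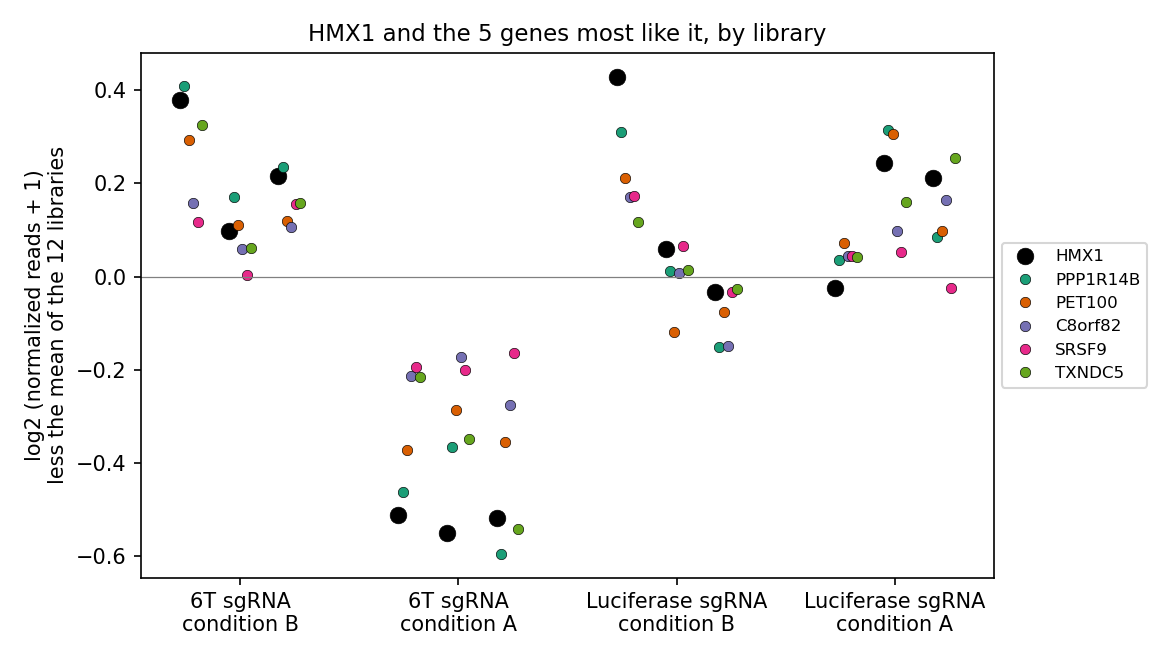
Log2 normalized reads less the mean of the 12 libraries (vertical axis) for HMX1 and the 5 genes most like it, by sgRNA and condition, with 1 point per library. All 6 genes lie below their mean in the 3 libraries of condition A under the 6T sgRNA, which the choice of genes by likeness to HMX1 favours.

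HMX1 lies on chromosome 4 (GRCh38 8846076 to 8871817, minus strand, GENCODE 29). Of 45 annotated genes with a start within 500 kb, 25 were listed and 3 were measured, which here means a mean of 10 or more normalized reads in all 4 groups, while 22 had all 4 means under 1 and 20 were not listed. Of those 22 genes 21 were copies of the USP17L family, for which reads that match several copies may go uncounted, so their values do not show how much RNA they gave. The measured neighbours were ACOX3, a peroxisomal acyl-CoA oxidase with means from 135 to 189, TRMT44, a tRNA methyltransferase with means from 229 to 327, and CPZ, a carboxypeptidase with means from 13.4 to 18.3. In the authors' deposited table for the 6T sgRNA their log2 fold changes were −0.29 for ACOX3, −0.13 for TRMT44 and 0.23 for CPZ, each with an adjusted p of 1.

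Of the 9 genes, 8 were measured, and so were 51.8% of the listed genes. To set genes beside each other, normalized reads were divided by the length of the union of exons in kb. On this scale HMX1 stood highest at 246 ± 55.0 per kb (SD over 12 libraries), followed by EYA3 at 157 ± 20.9, SALL1 at 122 ± 8.24 and SIX4 at 63.1 ± 6.87. WT1 at 24.3 ± 2.63, PAX2 at 21.1 ± 3.12, LHX1 at 19.7 ± 2.25 and EYA1 at 18.0 ± 2.26 formed a lower set. The median measured gene had 61.7 per kb, so 4 of the factors lay above it, with HMX1 at the 84th percentile.

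Neighbours in this order overlapped over the 12 libraries in most places. HMX1 ranged from 164 to 323 per kb, EYA3 from 111 to 182 and SALL1 from 109 to 134. SIX4 stood apart from both sides, at 45.7 to 71.4, and WT1, PAX2, LHX1 and EYA1 overlapped within 14.7 to 28.0. With the longest annotated transcript as the length, EYA1 stood at 39.1 per kb, against 32.0 for WT1, 31.8 for PAX2 and 28.1 for LHX1, so the order of the lower set depends on the length used.

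**Figure D4:**
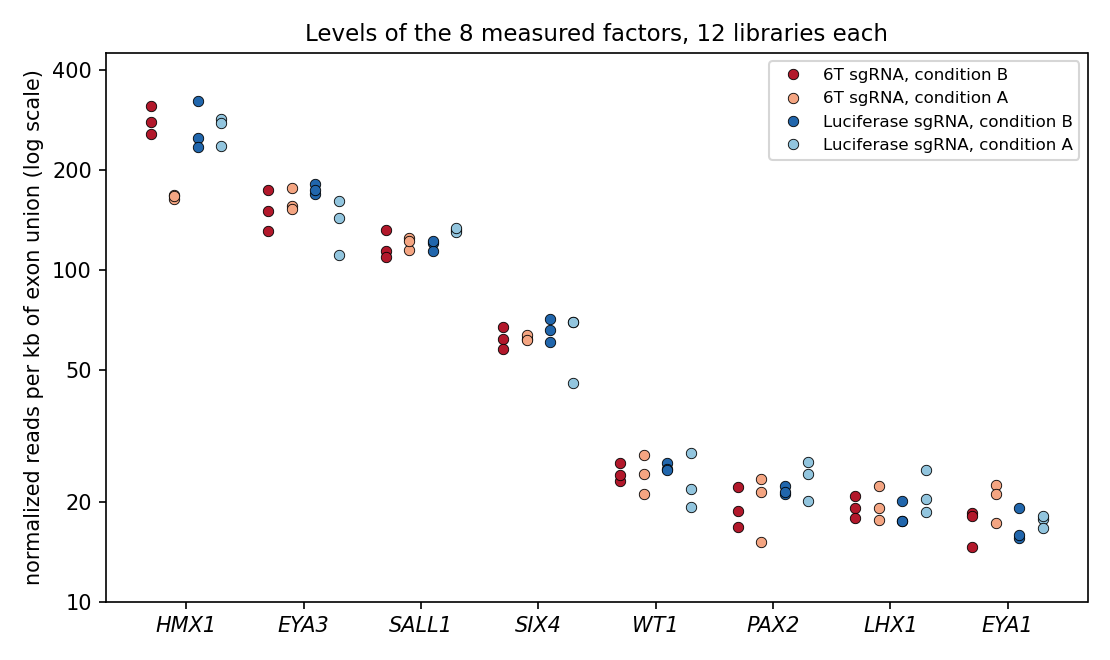
Normalized reads per kb of exon union on a log scale (vertical axis) for the 8 measured factors, with 1 point per library and colours by sgRNA and condition. The 3 libraries of condition A under the 6T sgRNA lie below the other HMX1 libraries, and groups of the other factors lie close together. PAX8, with libraries at 0, cannot be drawn on this scale.

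Of the paired-box pair, PAX2 was measured and PAX8 was close to 0. PAX2 (chromosome 10, 100735603 to 100829941, plus strand) had 105, 138 and 117 normalized reads in condition B and 146, 94.9 and 133 in condition A under the 6T sgRNA. The Luciferase libraries had 139, 132 and 134 in condition B and 165, 125 and 152 in condition A, so both pairs of groups overlapped. PAX8 (chromosome 2, 113215997 to 113278950, minus strand) held 11 reads over all 12 libraries, with 1 in condition B and 2 in condition A under the 6T sgRNA, and 5 in condition B and 3 in condition A under the Luciferase sgRNA. These counts allow no fold change. The antisense gene PAX8-AS1 overlaps it and had means from 1.73 to 2.41 normalized reads, and use of strand in the counting is not stated, so reads of the pair cannot be told apart.

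Among SIX4, EYA1 and EYA3, the last was the most abundant in reads. EYA3 (chromosome 1, 27970344 to 28088696, minus strand) had 1098, 1179 and 1131 normalized reads in condition B and 720, 1045 and 930 in condition A under the Luciferase sgRNA. All 3 libraries of condition B lay above those of condition A, with a gap that was small beside the spread within condition A. Under the 6T sgRNA it had 1128, 852 and 977 in condition B and 1012, 1147 and 987 in condition A, and the groups overlapped. In the authors' deposited table for the Luciferase sgRNA its log2 fold change was 0.34 (adjusted p = 1). limma gave a log2 difference of 0.35 with a 95% interval from 0.05 to 0.66 (adjusted p = 0.454), and 0.20 without the lowest library, Luciferase A1. Between the sgRNAs the difference in B over A, Luciferase minus 6T, was 0.45 with an adjusted p of 0.480 in limma, which does not pass and which takes the letters to mean the same in both tables.

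SIX4, a homeodomain protein (chromosome 14, 60709528 to 60724348, minus strand), had 413, 447 and 384 normalized reads in condition B and 412, 424 and 410 in condition A under the 6T sgRNA. The Luciferase libraries had 404, 438 and 475 in condition B and 304, 462 and 464 in condition A, where the library at 304 was the lowest of the 12. EYA1, the EYA cofactor whose loss stops kidney formation in the mouse (chromosome 8, 71197433 to 71592025, minus strand), had 138, 175 and 171 in condition B and 212, 162 and 200 in condition A under the 6T sgRNA. Its log2 fold change of −0.25 in the authors' deposited table was the lowest of the measured factors there and had an adjusted p of 1. With the Luciferase sgRNA EYA1 had 147, 149 and 181 in condition B and 167, 158 and 171 in condition A. SIX4 and EYA1 thus overlapped between conditions under both sgRNAs.

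SALL1 (chromosome 16, 51135975 to 51151367, minus strand) was the steadiest of the factors, with a coefficient of variation of 6.73% over the 12 libraries. It had 682, 645 and 692 normalized reads in condition B and 748, 735 and 757 in condition A under the Luciferase sgRNA, where the groups did not overlap. Under the 6T sgRNA it had 645, 617 and 744 in condition B and 706, 650 and 693 in condition A, and there they did. In the authors' deposited table for the Luciferase sgRNA the log2 fold change was −0.15 (adjusted p = 1), and limma gave −0.15 with an adjusted p of 0.456.

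LHX1 and WT1 lay close to 100 normalized reads in every group. LHX1 (chromosome 17, 36936785 to 36944612, plus strand) had 102, 93.6 and 87.2 in condition B and 93.8, 86.1 and 109 in condition A under the 6T sgRNA. In the Luciferase libraries it had 98.0, 85.8 and 85.7 in condition B and 90.9, 122 and 99.4 in condition A. WT1 (chromosome 11, 32387775 to 32435630, minus strand) had 108, 94.96 and 99.1 in condition B and 100, 114 and 87.0 in condition A under the 6T sgRNA. With the Luciferase sgRNA it had 108, 103 and 103 in condition B and 79.3, 89.7 and 115 in condition A. Groups overlapped for both genes under both sgRNAs. The antisense gene WT1-AS overlaps WT1 and had means from 9.95 to 16.6. Use of strand in the counting is not stated, so how many reads of WT1 the overlap affects is not known.

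Across the set, no difference between conditions was called for the measured factors other than HMX1. Under the 6T sgRNA the authors' DESeq test called 0 of these 7 measured factors, and 0 had an unadjusted p under 0.05 in either DESeq or limma. Over all measured genes the DESeq test gave such a p to 0.991% in the 6T table and 1.58% in the Luciferase table. Their limma differences ran from −0.25 for EYA1 to 0.01 for WT1, and their 95% intervals together spanned −0.60 to 0.40. Under the Luciferase sgRNA the authors' DESeq test called 0 of 8 factors and 0.0% of 20194 genes. At an unadjusted p under 0.05 there were 0 factors in DESeq and 1 in limma, EYA3. In limma 1370 of 13995 genes had such a p, so 1 of 8 says nothing particular about the factors. limma called 0 genes there, the factors included. The limma differences of the 7 factors ran from −0.20 for LHX1 to 0.35 for EYA3, within 95% intervals that together spanned −0.57 to 0.66. Values anywhere in these intervals remain possible at 3 libraries a group, so the factors were not shown to be unchanged.

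Counted by groups that do not overlap, 1 of 8 factors, HMX1, was apart under the 6T sgRNA, against 7.92% of all genes, and its selection used that comparison. Under the Luciferase sgRNA 2 of 8 were apart, EYA3 higher and SALL1 lower in B, against 16.0% of all genes. Over 8 genes that count says nothing particular about the factors.

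**Figure D5:**
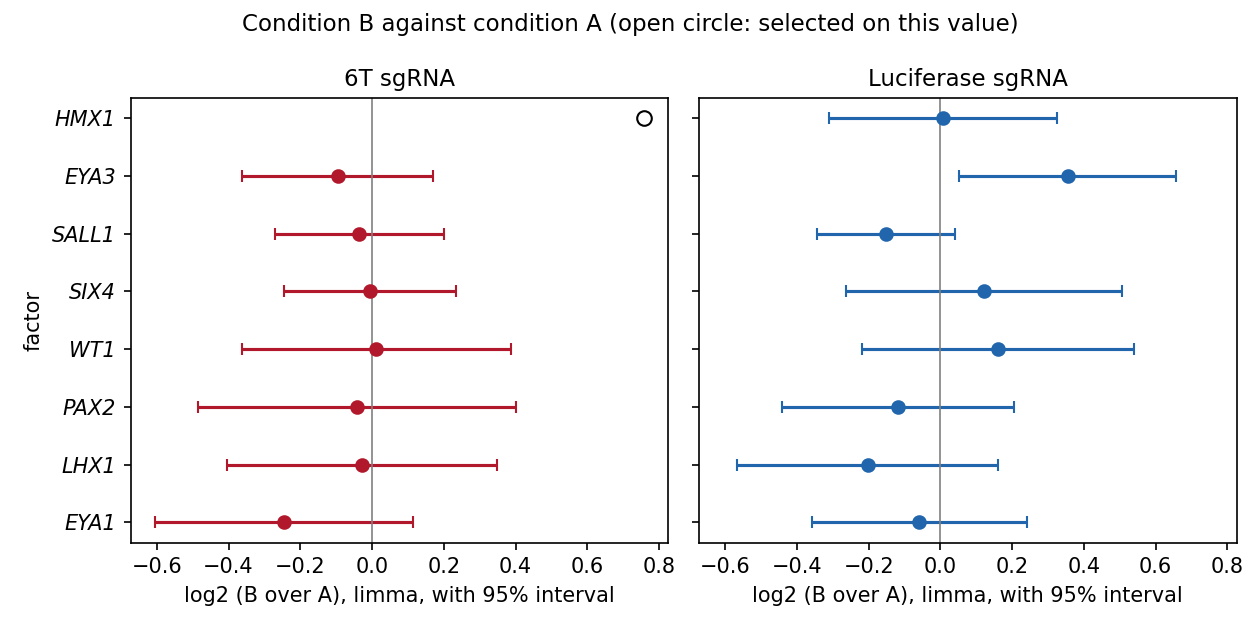
Log2 difference of condition B over A from limma (horizontal axis) for the 8 measured factors under the 6T and the Luciferase sgRNA, with 95% intervals. The open circle marks HMX1 under the 6T sgRNA, given without an interval because it was selected on this comparison, and the interval of EYA3 under the Luciferase sgRNA lies above 0 before adjustment.

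Between sgRNAs within condition A, where the sgRNA and Cas9 may both differ, SALL1 was higher in all Luciferase libraries than in all 6T libraries, 1 of the 7 measured factors other than HMX1, against 33.0% of all genes. HMX1 was higher in all of them too, in the libraries it was selected on, and is not counted there. limma called 0 of the 7 factors and 85 of 13944 genes, or 0.61%, a count that ran from 0 to 1209 with 1 library left out. HMX1 was among the 85, but it was not called with the GC curve taken off. Its selection on these libraries means that neither outcome counts as a test. SALL1 was 0.13 higher on the log2 scale (adjusted p = 0.327), and the 7 factors ran from −0.24 for EYA3 to 0.25 for PAX2. The log2 differences followed GC content in this comparison too, with a Spearman rho of 0.73 across genes. Within condition B, with the same doubt about Cas9, groups of 0 of the 7 factors were apart, against 13.0% of all genes. limma called 0 of the 7 factors there and 0 of 13944 genes, of which 752 had an unadjusted p under 0.05 and 0 were among the 7. Those 7 ran from −0.07 for LHX1 to 0.21 for EYA3.

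The cells held many relatives of the factors. Of 28 other genes of their families, with DACH1 and DACH2, 22 were measured, 0 were called under either sgRNA in the authors' DESeq test and 0 had an unadjusted p under 0.05. That test called 0.0416% of all tested genes in the 6T table and 0.0% in the Luciferase table. It gave an unadjusted p under 0.05 to 0.991% and 1.58% of all measured genes. Counts of 0 near such shares say nothing particular about the relatives. SALL2 and SIX2 were among the most abundant, with 236 and 298 normalized reads per kb. SIX2, which keeps nephron progenitors self-renewing in the mouse, averaged 613 normalized reads in condition B and 609 in condition A under the 6T sgRNA, and 670 in condition B and 736 in condition A under the Luciferase sgRNA. The HMX1 paralog HMX2 was lower, at 15.9 per kb, and HMX3 at 10.7 per kb. HMX2 had means of 29.9 in condition B and 25.5 in condition A under the 6T sgRNA. Among the measured relatives, 9 were higher and 13 lower in B under the 6T sgRNA, with a median log2 fold change of −0.01, against −0.03 over all measured genes.

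Many early kidney genes were measured. Of 13 nephron progenitor factors 11 were measured, of 12 genes of the ureteric bud and collecting duct 8, of 10 podocyte genes 7, and of 9 kidney stroma genes 8, while 51.8% of all listed genes were measured. FOXC1 was the most abundant of them, at 727 normalized reads per kb. Genes of the finished nephron were divided. UMOD (uromodulin) and FOXI1 were listed at 0 in all 4 groups, and the tubule regulator HNF4A had means of at most 2.26. LRP2, the uptake receptor megalin of the proximal tubule, had means from 419 to 516, and the podocyte genes PODXL and SYNPO had means from 502 to 549 (PODXL) and from 89.5 to 125 (SYNPO). Of 16 nephron tubule genes 8 were measured, close to the share of all genes. Among the progenitor genes OSR1, with means from 8.65 to 17.6, and MEOX2, with means of at most 0.42, were not measured. The lists therefore show kidney genes of early and finished structures side by side, and the examples were chosen after their values were seen.

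In these 5 kidney lists, 0 genes were called under either sgRNA, against 0.0416% of all tested genes in the 6T table and 0.0% in the Luciferase table. Of their 42 measured genes, the authors' DESeq test gave 3 in the 6T table (7.14%) and 1 in the Luciferase table (2.38%) an unadjusted p under 0.05, against 0.991% and 1.58% of all measured genes. They are named for that after their values were seen. FOXD1, a stroma factor, had 663, 570 and 598 normalized reads in condition B and 468, 479 and 413 in condition A under the 6T sgRNA. UNCX, a homeodomain protein, had 218, 214 and 227 in condition B and 166, 170 and 116 in condition A. CITED1, a coactivator that marks uncommitted progenitors, had 347, 397 and 406 in condition B and 289, 303 and 305 in condition A. All 3 were higher in every library of condition B, as HMX1 was, in the comparison they were picked on. Groups lay apart in it for 7.92% of all genes. Under the Luciferase sgRNA UNCX was lower in every library of condition B, at 191, 190 and 185 against 221, 195 and 223. In that comparison groups lay apart for 16.0% of all genes. The groups of FOXD1 and CITED1 overlapped there. Transcripts were 66.02% (FOXD1), 72.6% (UNCX) and 61.6% (CITED1) G or C, all above the median of 48.7%. GDNF, the growth factor that draws out the ureteric bud, had 43.1, 28.997 and 32.0 in condition B and 71.0, 41.8 and 53.3 in condition A under the Luciferase sgRNA, where the groups overlapped.

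Genes of tissues where HMX1 is known to act were partly present. Of 18 factors of sympathetic and sensory neurons 10 were measured, with GATA2 at 208, POU4F1 at 178 and HAND1 at 403 normalized reads per kb, but the sympathetic determinant PHOX2A was listed at 0 and TH, the first enzyme of catecholamine synthesis, reached at most 1.03. Of 12 retina and ear genes 7 were measured, PAX6 at 18.8 per kb among them. Both shares lie close to the 51.8% of all listed genes. Of 8 adrenal cortex genes 0 were measured, with NR5A1, their master regulator, at means from 6.97 to 14.8. Of 15 blood, endothelial and fibroblast markers 6 were measured, COL1A1 the most abundant, whereas CD3E and HBB were listed at 0 and PTPRC reached at most 0.42. The summed level of these 15 markers was 732 in condition B and 764 in condition A under the 6T sgRNA, and 735 in condition B and 753 in condition A under the Luciferase sgRNA. The part of these markers in the HMX1 difference was not tested. The authors' DESeq test called 0 genes of these 4 lists under either sgRNA, and 0 had an unadjusted p under 0.05. Over all tested genes it called 0.0416% in the 6T table and 0.0% in the Luciferase table. Such an unadjusted p went to 0.991% and 1.58% of all measured genes, so these counts of 0 say nothing particular about the lists.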

How the data were processed

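PolyA RNA of HEK293T cells was sequenced in 12 libraries, 3 for each of 4 groups. Per the submitters' processing notes, the authors used STAR, hg38, HTSeq and DESeq, without versions. The deposited signal values are mean counts divided by DESeq size factors, per the file headers. The deposited ratio column is the mean of B over that of A, the deposited log2 column is its log2, and the p-value columns hold the authors' test and its adjusted value. Rows that name no gene held 37.9% to 42.6% of reads and were left out.

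Whole reads per library were recovered from each mean as the single sum of whole reads that gives it, for 99.6% to 99.9% of genes above 0 in a group. Reads taken at their mean for lack of a solution made up 2.16% to 12.1% of a library. Median-of-ratios factors computed from the 12 recovered libraries matched the deposited ones to within 0.0528%, so levels can be set side by side across both tables. The recovery and the limma fit were tested on simulated data.

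limma 3.58.1 (R 4.3.3, trend option) took log2(normalized reads + 1) of genes with a mean of 10 or more, with Benjamini-Hochberg adjustment over all genes at 0.05. Fold changes on this scale understate changes of low genes. Lengths and GC content came from GENCODE 29, matched by symbol for 90.2% of listed genes. The design named no count test for recovered reads, and none was run. Counts of factors between sgRNAs leave out HMX1, which was selected on 6T libraries. The plan was to name the 9 factors, the 3 most abundant genes of each list at a mean of 10 or more and called list genes. It also took the 5 genes most like HMX1 and the genes near it. Other list genes given by name are examples, chosen after their values were seen. Some list genes are not reported here. The factors and 10 further lists were chosen with earlier results of these data known. Alternatives were another test, pseudocount, minimum, size factors, voom weights, a GC curve, other lengths and each library left out.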

Additional observations from a re-analysis of the deposited data

How the results depend on the processing

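The call of HMX1 under the 6T sgRNA rests on the authors' test: limma called 0 of the factors under every pseudocount, minimum, size factor, GC and voom setting and with each library left out (0 to 0), with its log2 difference at 0.68 to 0.82 over the libraries left out. The cause was not tested. Between sgRNAs, 0 of the 7 measured factors other than HMX1 were called in limma within condition A or B, or for the difference in B over A, under any setting run.

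Values near 0 that were never called changed sign in places. Under the 6T sgRNA SIX4 became 0.064 with the GC curve removed in limma, 0.0051 with size factors within the table and 0.076 with the curve taken from the authors' value, where SALL1 became 0.0043. Under the Luciferase sgRNA PAX2 became 0.029 in limma and 0.019 from the authors' value with the GC curve, SIX4 −0.080 in limma and −0.10 from the authors' value, and HMX1 −0.015 with voom weights. SALL1 between sgRNAs within condition B became −0.0051 with the GC curve. Leaving out 1 library at a time under the 6T sgRNA gave −0.23 to 0.082 for PAX2, −0.061 to 0.047 for SIX4, −0.20 to 0.0045 for EYA3, −0.11 to 0.063 for LHX1, −0.11 to 0.020 for SALL1 and −0.085 to 0.11 for WT1. Under the Luciferase sgRNA it gave −0.13 to 0.10 for HMX1 and −0.081 to 0.22 for SIX4, and between sgRNAs within condition B −0.22 to 0.013 for HMX1 and −0.042 to 0.092 for SALL1.

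No paired analysis was possible because the deposited columns carry no replicate numbers and the recovered libraries are ordered by size factor alone. Depth limits PAX8, with 11 reads in all, and groups of 3 libraries limit the other factors.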
